A study of Mus musculus with 18 samples.

Results

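The MS4A genes code for small tetraspan membrane proteins and lie side by side on mouse chromosome 19. Of the 20 Ms4a genes in a table of read counts for 26327 gene symbols, 9 were followed here across sorted cells of the mouse trachea: Ms4a1, Ms4a2, Ms4a4b, Ms4a4c, Ms4a6b, Ms4a6c, Ms4a6d, Ms4a7 and Ms4a15. They were chosen by name with their levels in these libraries already known, as a gene cluster divided between epithelial and leukocyte use. Their levels and the differences between the groups are therefore a description, with no test, and tests are given only for other genes.

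All mice, controls included, carried the transgene Tg(RP23-268L19-EGFP)2Mik on the congenic background B6.Cg, a bacterial artificial chromosome that expresses eGFP under control of the Chat locus, and were naïve (untreated). Brush cells (7 libraries), also known as tuft cells, are chemosensory epithelial cells. They were sorted as CD45- EpCAM+ eGFP+, and for them the reporter stands in for choline acetyltransferase expression. EpCAM+ epithelial cells (7 libraries) were sorted as CD45- EpCAM+, a gate that as worded does not exclude eGFP+ cells, and CD45+ hematopoietic cells formed 4 libraries. Neither the ages of the mice nor the number of animals behind each library is known here, so the spread between libraries of a group may be technical.

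In leukocytes, the best known member is Ms4a1, which codes for CD20, the B cell surface protein that therapeutic antibodies such as rituximab bind. Ms4a2 codes for the beta chain of the high-affinity IgE receptor (FceRI) of mast cells and basophils, where it amplifies the signal of the gamma chain. Ms4a4b and Ms4a6b have been studied in T cells, and Ms4a6c, Ms4a6d and Ms4a7 in monocytes and macrophages. Ms4a15 is less studied and has been linked to calcium handling in the endoplasmic reticulum. In the nose, several MS4A proteins act as chemoreceptors of olfactory sensory neurons of the necklace system.

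On GRCm38 the family occupied 679 kb of chromosome 19, from 10962293 to 11640851, with 21 protein-coding Ms4a genes. Ms4a15 lay near one end, at 10978307-10993250 on the minus strand. The next member, Ms4a1, lay 256 kb away at 11249675-11266241, also on the minus strand, with 6 other family genes between them. Beyond it followed Ms4a7 (11321039-11336146, minus), Ms4a4c (11404770-11427246, plus), Ms4a4b (11443553-11467055, plus), Ms4a6c (11469366-11482192, plus), Ms4a6b (11516512-11531256, plus), Ms4a6d (11586604-11604849, minus) and Ms4a2 (11615523-11623719, minus). The 8 members other than Ms4a15 thus sat together within 374 kb.

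RefSeq promoter windows of 300 bases (250 before to 50 after a transcript start, GRCm38.p6) were at hand for 7 of the 9 members, 8 windows in all as 1 gene has 2 of them, and not for Ms4a1 and Ms4a6d. The Ms4a15 window, the member that was high in brush cells, is shown at 19:10993201-10993500, minus strand, 5′ to 3′. Capitals mark its match to GAGGAA, the core letters of PU.1 and related ETS factors, which lay on the opposite strand at position -66 from the start.
Ms4a15: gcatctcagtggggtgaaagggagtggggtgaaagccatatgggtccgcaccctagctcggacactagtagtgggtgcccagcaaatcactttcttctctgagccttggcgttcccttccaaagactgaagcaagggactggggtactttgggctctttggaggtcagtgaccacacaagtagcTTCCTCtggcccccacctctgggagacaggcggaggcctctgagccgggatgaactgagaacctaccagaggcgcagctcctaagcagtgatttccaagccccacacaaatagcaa
GAGGAA on either strand was found in 28.3% of 32851 RefSeq promoter windows of this length, and in 4 of the 8 windows of members (Ms4a15, Ms4a4b, Ms4a4c and Ms4a7), so the match is a description only.

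Ms4a4b and Ms4a4c are shown side by side because their windows were related. Capitals mark the runs of 12 or more bases present in both windows, 131 of 300 bases (43.7%), of which the longest had 20 bases. The windows were 19:11443308-11443607 and 19:11407411-11407710, both on the plus strand.
Ms4a4b: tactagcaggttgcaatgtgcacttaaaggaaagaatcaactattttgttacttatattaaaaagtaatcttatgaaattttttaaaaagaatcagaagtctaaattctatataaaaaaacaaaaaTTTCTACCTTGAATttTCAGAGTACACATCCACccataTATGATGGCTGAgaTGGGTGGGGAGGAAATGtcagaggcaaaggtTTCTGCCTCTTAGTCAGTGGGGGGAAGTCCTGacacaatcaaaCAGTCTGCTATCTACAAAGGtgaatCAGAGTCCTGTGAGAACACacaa
Ms4a4c: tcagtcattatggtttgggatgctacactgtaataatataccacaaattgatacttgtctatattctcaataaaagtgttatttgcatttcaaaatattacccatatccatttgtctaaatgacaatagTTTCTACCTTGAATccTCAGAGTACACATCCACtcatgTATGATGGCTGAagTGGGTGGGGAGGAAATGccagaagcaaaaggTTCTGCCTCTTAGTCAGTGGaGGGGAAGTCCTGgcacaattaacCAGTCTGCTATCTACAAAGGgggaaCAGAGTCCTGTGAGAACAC
The shared stretch held the GAGGAA match of both genes, at positions -64 of Ms4a4b and -61 of Ms4a4c. The Ms4a4c window also held the octamer ATGCAAAT on the opposite strand at position -170, which 1.74% of all windows contained on either strand.

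Ms4a6b and Ms4a6c formed the other related pair. With the same rule for capitals, 86 of 300 bases (28.7%) were shared, the longest run having 48 bases, in the windows 19:11518309-11518608 and 19:11469118-11469417, both plus.
Ms4a6b: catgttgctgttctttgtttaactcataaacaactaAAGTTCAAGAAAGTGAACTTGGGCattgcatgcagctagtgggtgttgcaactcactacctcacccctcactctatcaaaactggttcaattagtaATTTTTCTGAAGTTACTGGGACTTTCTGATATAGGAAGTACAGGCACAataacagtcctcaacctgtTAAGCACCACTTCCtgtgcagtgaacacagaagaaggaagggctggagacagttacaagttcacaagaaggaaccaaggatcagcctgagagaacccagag
Ms4a6c: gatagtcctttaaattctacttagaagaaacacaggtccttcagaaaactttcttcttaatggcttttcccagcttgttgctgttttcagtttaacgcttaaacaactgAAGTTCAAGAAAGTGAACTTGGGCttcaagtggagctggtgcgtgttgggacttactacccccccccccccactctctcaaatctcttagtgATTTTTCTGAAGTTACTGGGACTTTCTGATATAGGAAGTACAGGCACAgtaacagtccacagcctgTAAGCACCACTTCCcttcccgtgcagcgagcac
The Ms4a2 window (19:11623670-11623969, minus) shared no run of 12 bases with any of the others printed here. It is shown with its 3 matches to the GATA motif AGATAA in capitals, at positions -224, -37 and -11, on the opposite strand for the first and second and on the same strand for the last. AGATAA on either strand was present in 11.2% of all windows, and among the members' windows in that of Ms4a2 alone.
Ms4a2: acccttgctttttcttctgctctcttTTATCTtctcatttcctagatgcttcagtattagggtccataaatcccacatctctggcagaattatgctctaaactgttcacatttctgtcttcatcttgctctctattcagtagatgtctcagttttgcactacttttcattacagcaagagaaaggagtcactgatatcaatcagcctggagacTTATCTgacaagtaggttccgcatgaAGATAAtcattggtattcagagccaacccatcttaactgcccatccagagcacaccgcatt

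Library totals ran from 371652 to 7438791 counts. Levels are given as CPM, counts normalised to the library size after TMM scaling, and genes are compared with each other only in TPM, the length-corrected abundance that the authors deposited. Of the 9 members, 8 passed the filter on low counts and Ms4a2 did not. There were 3 libraries that stood apart: brush replicate 4 had 838328 counts, of which 63.5% came from ribosomal RNA genes, CD45+ replicate 1 had 371652 counts, and EpCAM+ replicate 5 had 12.2% ribosomal RNA counts against 17.0% to 34.1% in the other EpCAM+ libraries. The defining markers Trpm5 and Ptprc followed the labels. Trpm5, a cation channel gene of brush cells, was at 2327 ± 520 CPM (mean ± SD, n = 7) in brush, 1.04 ± 1.10 (n = 7) in EpCAM+ and 0.651 ± 0.463 (n = 4) in CD45+ cells. Ptprc, which codes for CD45, ran from 10.2 to 31.4 CPM in brush, 0 to 0.270 in EpCAM+ and 635 to 1491 in CD45+ cells. Epcam itself was at 2126 ± 334 CPM in brush, 504 ± 143 in EpCAM+ and 28.9 ± 4.25 in CD45+ cells. The epithelial markers Krt8, Krt18 and Cdh1 also had higher means in brush than in EpCAM+ cells. Chat, the locus of the reporter, was at 243 ± 72.6 CPM in brush, 1.28 ± 1.34 in EpCAM+ and 28.9 ± 24.4 in CD45+ cells. Since these are bulk samples, fewer cells of a type and less RNA per cell cannot be told apart.

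Ms4a15 was the brush cell member. Its level was 217, 202, 210, 123, 185, 225 and 204 CPM in brush replicates 1 to 7, a mean of 195 ± 34.4 CPM (SD, n = 7) from 6144 counts. It had 0 counts in 6 of the 7 EpCAM+ libraries and 2 counts (0.539 CPM) in EpCAM+ replicate 7. It had 0 counts in all 4 CD45+ libraries, where a count of 0 allows a mean of up to 0.172 CPM (3 counts over the group). Every brush library thus lay far above every other library, and the lowest of them was replicate 4.

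The ratio of brush to EpCAM+ cells, over summed counts, was 3157 (95% counting interval 874 to 26078), and against CD45+ cells the level was at least 1133-fold higher. Such intervals and limits cover counting error only, and reads without molecular identifiers are not independent molecules. Without brush replicate 4 the brush mean was 207 CPM, and without all 3 libraries that stood apart it was 219 CPM. In the RSEM tables Ms4a15 had 4826 expected counts in brush cells, 0.786 of the number in the count table, and leaving ribosomal RNA genes out of the library sizes raised its brush mean to 302 CPM.

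Per length, Ms4a15 reached 222, 199, 226, 85.4, 134, 225 and 243 TPM in brush replicates 1 to 7. Its mean of 190 ± 58.5 TPM ranked 572 among the 22930 genes with a value above 0 in brush cells, within the top 2.49%. It made up 99.7% to 100% of the summed TPM of the 9 members in each brush library. In EpCAM+ cells the 9 members together summed to between 0 and 1.62 TPM a library.

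**Figure D1:**
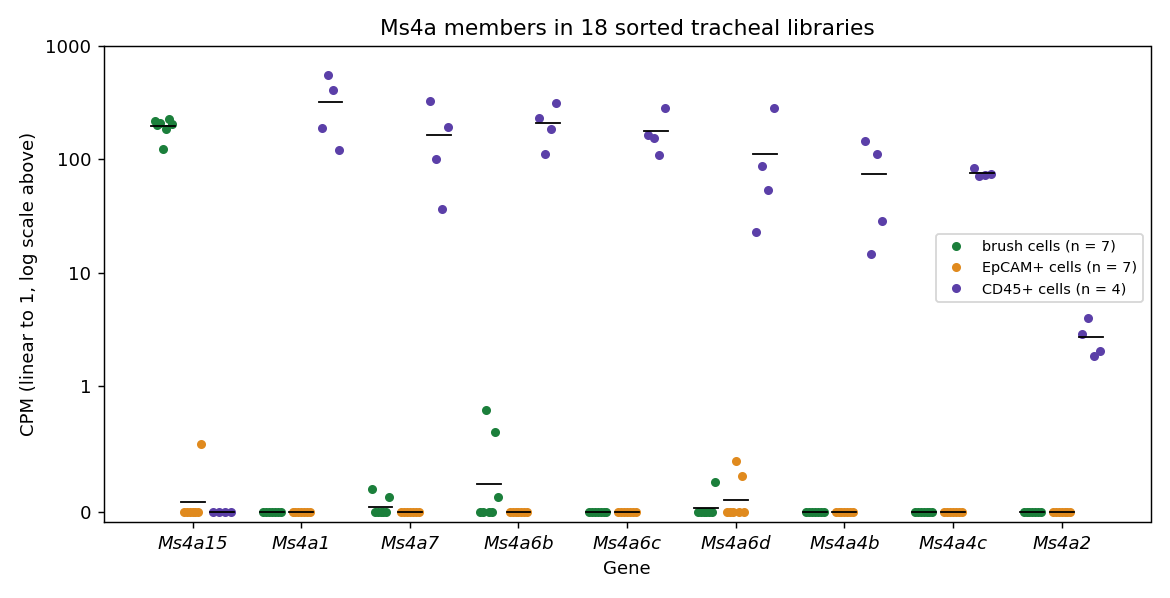
Level of each of the 9 members in each of the 18 libraries, in CPM on an axis that is linear up to 1 and logarithmic above, with genes along the x axis, 1 point per library and a bar at the group mean. Ms4a15 has its 7 brush points between 123 and 225 CPM and no CD45+ point above 0, while the other 8 genes have all 4 CD45+ points above every brush and EpCAM+ point.

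The 8 other members were leukocyte genes in these libraries, each with all 4 CD45+ libraries above all 14 others. For reading such counts, 8.48% of the 13418 genes tested had every CD45+ library above every other library and 6.57% had every brush library above every other. Since the members were chosen for this pattern, nothing is read from the comparison. Brush cells had 11 counts of these 8 genes in all, 7 of Ms4a6b, 2 of Ms4a6d and 2 of Ms4a7, and EpCAM+ cells had 4, all of Ms4a6d.

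Ms4a1, the CD20 gene, was at 190, 558, 410 and 121 CPM in CD45+ replicates 1 to 4, with a mean of 320 ± 201 CPM (SD, n = 4) from 6528 counts. It had 0 counts in every brush and EpCAM+ library. Replicates 2 and 3 were high and replicates 1 and 4 low, a spread of 4.63-fold within the group. The mean was at least 3155-fold that of brush cells and at least 3242-fold that of EpCAM+ cells.

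Ms4a2, the FceRI beta chain gene, was the weakest member. It had 1, 16, 17 and 8 counts in CD45+ replicates 1 to 4, or 2.87, 3.99, 1.86 and 2.03 CPM, with a mean of 2.69 ± 0.973 CPM (SD, n = 4). No count fell in the 14 other libraries, which put the CD45+ mean at least 26.5-fold above brush and at least 27.3-fold above EpCAM+ cells. RSEM assigned it 71.0 expected counts in CD45+ cells against 42 in the count table.

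Ms4a4b, the member studied in T cells, was the second most uneven across the CD45+ libraries. It stood at 144, 14.7, 110 and 28.7 CPM in replicates 1 to 4, with replicates 1 and 3 high and replicates 2 and 4 low, and a mean of 74.4 ± 62.6 CPM (SD, n = 4). Without CD45+ replicate 1 its mean was 51.3 CPM. Its 1230 counts compared with 0 in brush and EpCAM+ cells, at least 734-fold and 754-fold higher.

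Ms4a4c, whose promoter window resembled that of Ms4a4b, was the most even. It stood at 83.3, 71.8, 72.3 and 74.7 CPM in CD45+ replicates 1 to 4, a mean of 75.5 ± 5.36 CPM (SD, n = 4) that varied 1.16-fold. From high to low the libraries ran 1, 4, 3, 2 for Ms4a4c and 1, 3, 4, 2 for Ms4a4b. In TPM the same libraries ran from 33.0 to 97.2, so the evenness held for the count table and not for the RSEM values. It had 0 counts in both epithelial groups, at least 745-fold and 766-fold lower than in CD45+ cells.

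The Ms4a6 genes, found in myeloid cells and, for Ms4a6b, in T cells too, were highest in CD45+ replicate 4. Ms4a6b was at 233, 112, 184 and 311 CPM in replicates 1 to 4, with a mean of 210 ± 83.5 CPM (SD, n = 4). In brush cells it had 3, 3 and 1 counts in replicates 3, 6 and 7, giving a fitted log2 fold change of CD45+ over brush of 9.59 ± 0.61 (SE). Against EpCAM+ cells, with 0 counts, its mean CPM was at least 2131-fold higher.

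Ms4a6c was at 164, 155, 109 and 282 CPM in CD45+ replicates 1 to 4, with a mean of 177 ± 73.6 CPM (SD, n = 4). It had 0 counts in all brush and EpCAM+ libraries, at least 1750-fold and 1799-fold lower. Replicate 4 was the high library and replicate 3 the low one.

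Ms4a6d was the most uneven member, at 23.0, 87.2, 53.2 and 281 CPM in CD45+ replicates 1 to 4, a 12.2-fold range with a mean of 111 ± 116 CPM (SD, n = 4). Without CD45+ replicate 4 its mean was 54.5 CPM, and its level in replicate 1 rested on 8 counts. The ratio of summed counts to brush cells was 1657 (95% counting interval 458 to 13690), and the fitted log2 fold change over EpCAM+ cells was 9.51 ± 0.71 (SE). Its epithelial counts were 2 in brush replicate 7, 3 in EpCAM+ replicate 4 and 1 in EpCAM+ replicate 6.

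Ms4a7, a macrophage gene, followed another order. It was at 325, 102, 36.2 and 193 CPM in CD45+ replicates 1 to 4, with a mean of 164 ± 125 CPM (SD, n = 4), highest in replicate 1 and lowest in replicate 3. Without replicate 1 its mean was 110 CPM. Its ratio to brush cells was 1367 (95% counting interval 378 to 11299), from 1 count each in brush replicates 1 and 7. Against EpCAM+ cells, with 0 counts, the ratio was at least 1661.

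Per length, the order in CD45+ cells was Ms4a7 (159 ± 79.3 TPM, SD, n = 4), Ms4a6b (142 ± 46.0), Ms4a6c (120 ± 65.5), Ms4a1 (97.2 ± 74.9), Ms4a4b (90.2 ± 75.7), Ms4a6d (74.3 ± 72.2), Ms4a4c (69.3 ± 26.7) and Ms4a2 (3.94 ± 0.715). Neighbours in this order from Ms4a7 to Ms4a4c overlapped in their library values, so their order is not resolved by the 4 libraries. Ms4a2, at 3.40 to 4.93 TPM, lay below every library value of the other 7. The 7 stronger members ranked between 670 and 1390 among 22101 genes with a TPM above 0, and Ms4a2 ranked 8808.

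**Figure D2:**
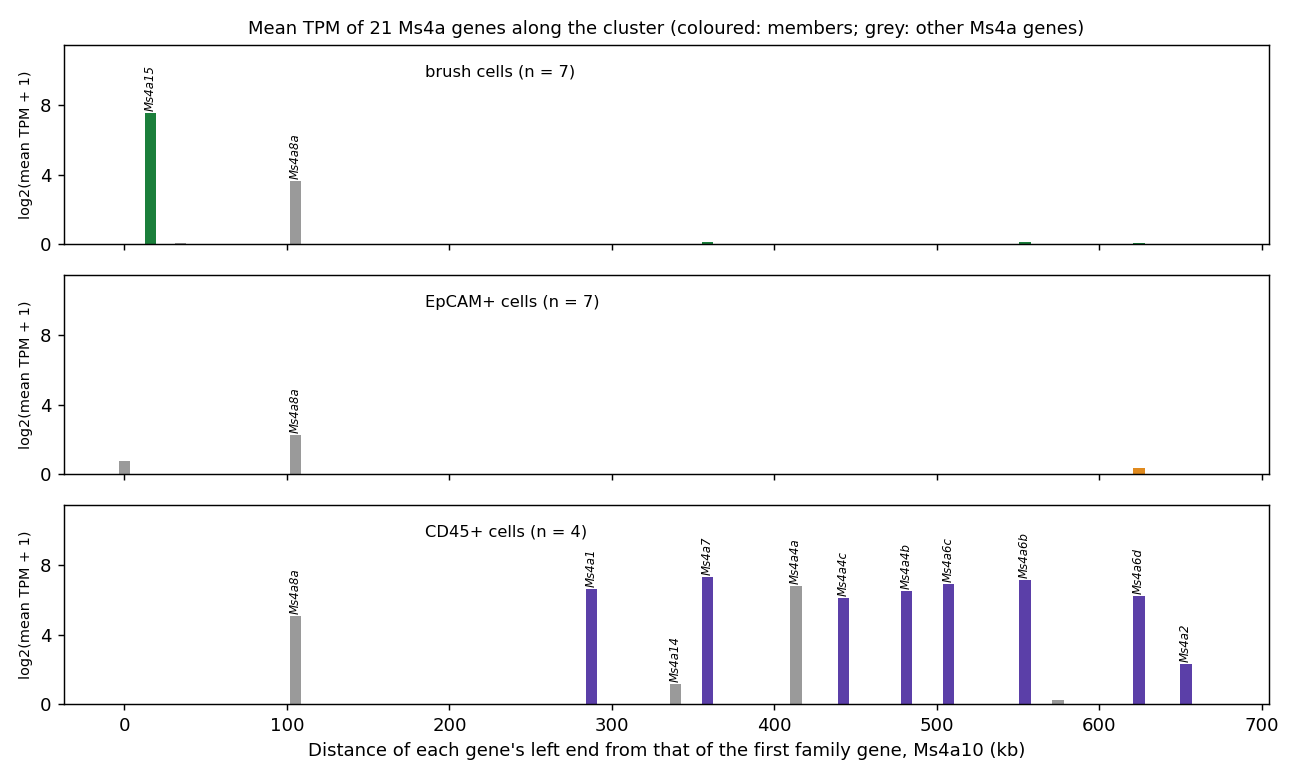
Mean TPM of 21 Ms4a genes in brush, EpCAM+ and CD45+ cells (log2 of the mean TPM + 1, y axis) against the distance of each gene's left end from that of Ms4a10 in kb (x axis), with the 9 members coloured and other family genes grey. The only tall member bar in brush cells is Ms4a15 at 16.0 kb, and those in CD45+ cells run from Ms4a1 at 287 kb to Ms4a2 at 653 kb.

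Among the 9 members, the make-up differed between CD45+ libraries more than the total. Ms4a4a, a family gene that is no member, is left out of these sums. Its mean in CD45+ cells was 112 ± 129 TPM (SD, n = 4). The 9 members summed to 642, 667, 783 and 930 TPM in replicates 1 to 4. Ms4a1 made up 5.09%, 25.1%, 20.0% and 3.46% of that sum, and Ms4a4b 19.5%, 3.44%, 23.0% and 3.51%. Ms4a7 made up 36.4%, 20.4%, 7.34% and 22.4%, and Ms4a6d 1.18%, 9.44%, 6.40% and 19.0%. Among the members alone, replicate 1 therefore led with Ms4a7, replicate 2 with Ms4a1, replicate 3 with Ms4a4b and replicate 4 with Ms4a6c (23.0%). Shares of replicate 1 rest on 405 counts of these genes in all.

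**Figure D3:**
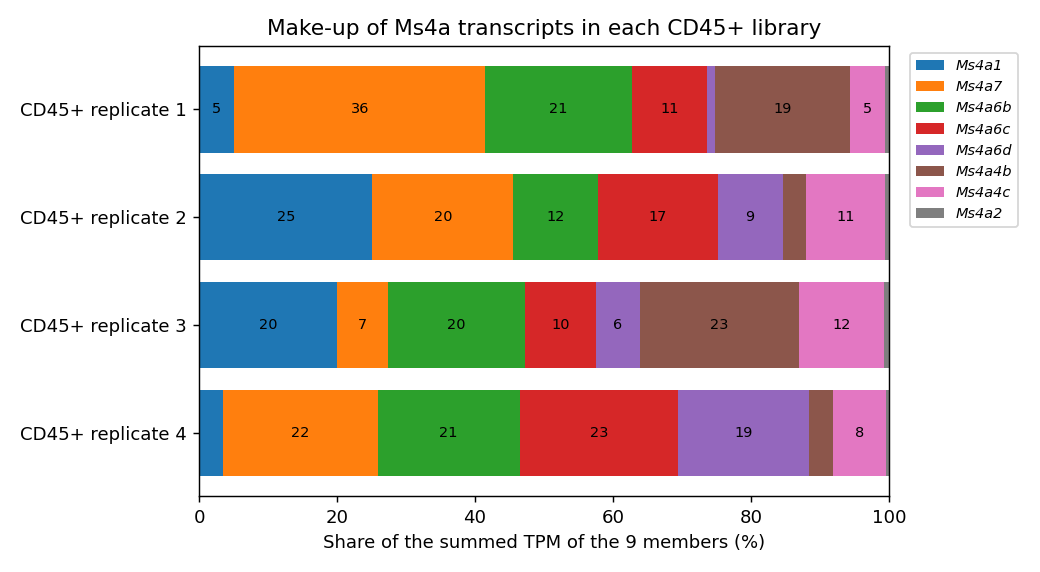
Share of each member in the summed TPM of the 9 members (x axis, %) in each of the 4 CD45+ libraries (y axis), with shares above 4% written in the bars. Ms4a1 fills 25.1% and 20.0% in replicates 2 and 3 and 5.09% and 3.46% in replicates 1 and 4, and Ms4a15 is at 0 in all 4.

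Markers of the leukocyte types followed some of these members and not others. The summed level of 16 T and NK cell genes was 2324, 365, 1761 and 557 CPM in CD45+ replicates 1 to 4, in the same order of libraries as Ms4a4b (1, 3, 4, 2). That of 20 macrophage and monocyte genes was 11019, 24792, 7925 and 29526 CPM, highest in replicate 4 as for Ms4a6d, while Ms4a7 was highest in replicate 1. Lyz2 alone made 4126, 15210, 3654 and 14773 CPM of this sum, and its own order was 2, 4, 1, 3. The summed level of 14 B cell genes was 1980, 1886, 3406 and 856 CPM, highest in replicate 3 and lowest in replicate 4, while Ms4a1 was highest in replicate 2. The part of cell make-up in the members' spread was not tested.

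Gene by gene, 6 of 15 tested T and NK cell genes had the exact library order of Ms4a4b, against 6.89% of the 9445 tested genes with counts in every CD45+ library: Cd3d, Cd3g, Cd8b1, Il7r, Nkg7 and Tnfrsf18, the last of which codes for GITR. The order of Ms4a6d was shared by 4 of 20 macrophage and monocyte genes (Csf1r, Mrc1, Adgre1 and Cd14) and by 12.5% of all. The order of Ms4a7 was shared by 3 of 20 (C1qc, Trem2 and Tyrobp) and 5.47% of all, and that of Ms4a6c by C1qa and C1qb (1.93% of all). Genes of other lists shared these orders too. The order of Ms4a4b was also that of the monocyte gene Ly6c2 and of Slc18a2 of the FceRI and mast cell list. The order of Ms4a7 was that of 2 of 12 FceRI and mast cell genes (Fcer1g and Tpsab1) and of the partner gene Cd63. The order of Ms4a6d was that of 3 of 12 partners and relatives (Orai1, Cd81 and Cd53), and the order of Ms4a6c that of Klrd1. Among the listed genes, the order of Ms4a4c was found in the mast cell genes Cma1 and Tpsb2 only. That of Ms4a6b was found only in Cpa3 and Hdc of the same list. The order of Ms4a2 was that of Syk of this list and of the epithelial gene Muc5b. The epithelial genes Foxj1 and Tmem212 had 1 count each in CD45+ cells, too few for an order of the libraries. None of 14 B cell genes had the order of Ms4a1, which the epithelial gene Scgb3a2 and 1.37% of all genes had. The epithelial genes Trp63 and Gp2, with 25 and 23 counts in CD45+ cells, were tied at 0 in some libraries and have no full order. With 4 libraries these orders are a description.

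The 3 genes most like each member were found by Pearson's r of log2(CPM + 1) over the 18 libraries. The measure is dominated by the contrast between groups, which the libraries of a group share. Ms4a15 was nearest to St6gal2, a sialyltransferase (r = 0.999), Olfr461, an olfactory receptor (r = 0.998), and Sucnr1, the succinate receptor (r = 0.998). Their brush means were 100.3 ± 26.0, 91.4 ± 16.9 and 187 ± 49.5 CPM (SD, n = 7), and St6gal2 and Sucnr1 had 0 CPM in both other groups. Ms4a1 was nearest to Pou2f2, the OCT2 factor of B cells (r = 0.997).

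Among the other leukocyte members, Ms4a4b was nearest to Nkg7, Cd3g and Il7r (r = 0.995, 0.995 and 0.994), genes of cytotoxic and T cells. Ms4a4c was nearest to Klrd1, Clec2i and Igkc, and Ms4a6b to Il2ra, Lcp2 and Klrd1. Ms4a6c was nearest to Cd226, Clec4a3 and Lilr4b, Ms4a6d to Ednrb, Igkj2 and C5ar1, and Ms4a7 to Clec4b1, Lilra5 and Bcl2a1a. Natural killer, B cell and myeloid genes thus appeared side by side in some of these sets, and r lay at or above 0.994 for every gene named.

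**Figure D4:**
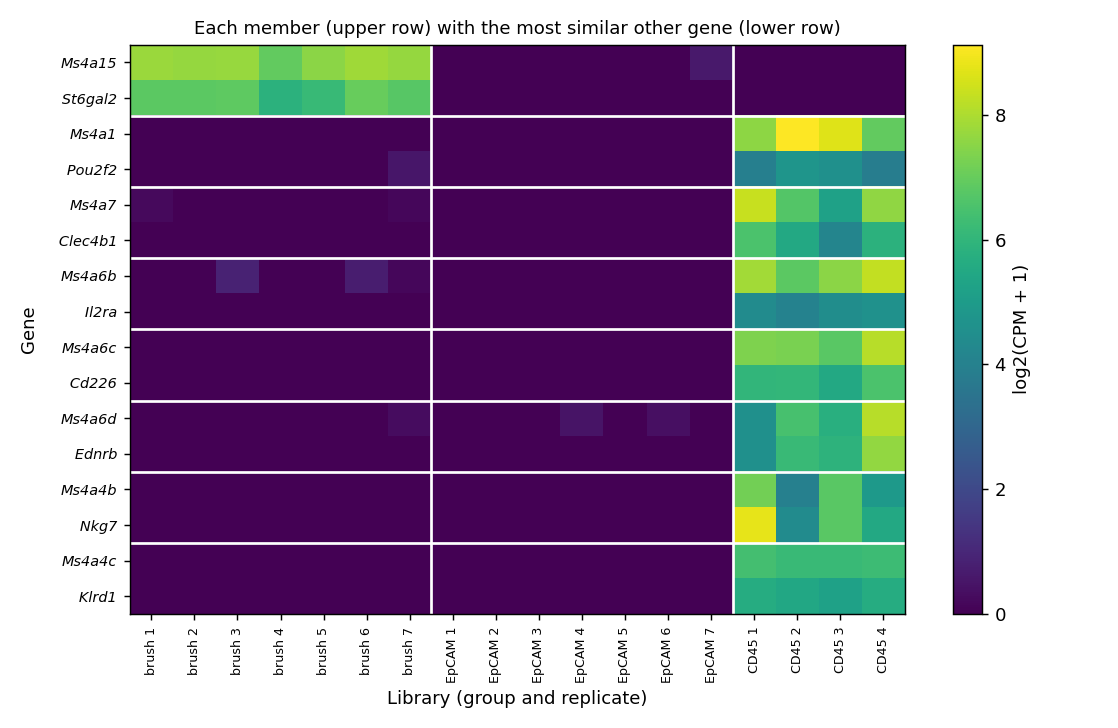
Log2(CPM + 1) in each of the 18 libraries (x axis, grouped as brush, EpCAM+ and CD45+) for the 8 members that passed the low count filter, each above the gene most like it (y axis). Ms4a15 and St6gal2 fill the 7 brush columns, and the other 7 pairs fill the 4 CD45+ columns.

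Of the other family genes, Ms4a4a, Ms4a8a and Ms4a14 had their highest mean in CD45+ cells, and the rest had at most 22 counts in a group. Ms4a4a, known from alternatively activated macrophages, had 2180 counts in CD45+ cells (122 ± 151 CPM, SD, n = 4) and 0 in both epithelial groups, and was lower in brush (adjusted p = 7.79e-06) and EpCAM+ cells (adjusted p = 6.89e-06, edgeR quasi-likelihood test with Benjamini-Hochberg adjustment, as for all tests here). Its CD45+ libraries stood at 8.62, 79.8, 55.0 and 344 CPM, in the library order of Ms4a6d, with a mean of 47.8 CPM without replicate 4. The value of replicate 1 rested on few counts, as that library had 371652 in all. Ms4a8a was the only family gene with counts in all 18 libraries. It measured 9.33 ± 6.32 CPM in brush, 3.74 ± 1.37 in EpCAM+ and 33.5 ± 28.0 in CD45+ cells (SD, n = 7, 7 and 4). Its CD45+ replicate 1, at 2.87 CPM, lay below every brush library (4.90 to 22.6 CPM). That level was 1 count, as for Ms4a2 in the same library.

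For Ms4a8a the log2 fold change of brush over EpCAM+ cells was 1.19 ± 0.47 (SE, adjusted p = 0.0444), a call lost in 10 of 26 alternatives with adjusted p of up to 0.0983, and those of brush and EpCAM+ over CD45+ cells were -2.05 ± 0.50 (adjusted p = 0.00157) and -3.25 ± 0.51 (adjusted p = 1.23e-05). Ms4a14 had 110 counts in CD45+ cells, 4 in brush replicate 6 and 0 in EpCAM+ cells. Ms4a10, the neighbour of Ms4a15 in the cluster, had 22 counts in 4 EpCAM+ libraries and 0 elsewhere, and Ms4a18, on its other side, had 6 counts in brush and 4 in CD45+ cells. Ms4a19 (listed as 1700025F22Rik) had 11 counts in brush and 1 in CD45+ cells, Ms4a20 (1700017D01Rik) had 1 count in brush cells, Ms4a4d 5 and Ms4a5 1 in CD45+ cells, and Ms4a3 and Ms4a13 had 0 in all 18 libraries.

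How far the counts of close relatives can be told apart was checked on the annotated transcripts. The share of a gene's 50-base words also found in another family gene was 8.13% for Ms4a4c, 6.08% for Ms4a6c, 5.66% for Ms4a6b, 4.19% for Ms4a4b, 2.69% for Ms4a6d and 2.13% for Ms4a2. It was 0 for Ms4a1, Ms4a7 and Ms4a15. The ratio of RSEM expected counts to counts in CD45+ cells was highest for Ms4a2, at 1.69 (71.0 against 42 counts). It was 1.36 for Ms4a4b and 1.19 for Ms4a4c, and between 0.933 and 1.17 for Ms4a1, Ms4a6b, Ms4a6c, Ms4a6d and Ms4a7. Genes on the opposite strand overlap Ms4a1, Ms4a4c, Ms4a6b and Ms4a6c, and the largest count among them was 181 in CD45+ cells for BE692007, which overlaps Ms4a6c. The strand setting of the counting is not known here, so these reads are uncertain.

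Genes beside the cluster were taken by position alone. Of the 21 protein-coding neighbours (10 on either side and Gm8369 within it), 11 passed the filter. Against EpCAM+ cells, 1 was higher in brush cells (Tmem132a, log2 fold change 0.95 ± 0.31 SE, adjusted p = 0.0159) where 18.3% of all 13418 genes were, and 3 were lower (Cd5, Tmem109 and Ccdc86) where 22.0% were. Against CD45+ cells none of the 11 was higher in brush cells and 5 were lower (Cd5, Cd6, Slc15a3, Ccdc86 and Gm8369), where 23.4% and 22.4% of all genes were. Cd5 and Cd6, T cell surface receptors next to each other, had 0 counts in brush cells and 435 and 755 in CD45+ cells. In EpCAM+ against CD45+ cells, 3 were lower (Cd6, Slc15a3 and Gm8369) and none higher, beside 18.1% and 22.5% of all genes.

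The other FceRI subunits had the leukocyte pattern of Ms4a2. Fcer1a, the IgE-binding alpha chain, had 0 counts in both epithelial groups and 54.6, 0.748, 13.5 and 22.6 CPM in CD45+ replicates 1 to 4. Fcer1g, the signalling gamma chain that many myeloid receptors share, was at 864 ± 555 CPM (SD, n = 4) in CD45+, 0.651 ± 0.738 in brush and 0.482 ± 1.15 in EpCAM+ cells (SD, n = 7 each), the last being 0.0481 without EpCAM+ replicate 5. Its log2 fold change of brush over CD45+ was -10.41 ± 0.88 (SE, adjusted p = 1.55e-09).

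Of 12 tested genes of the FceRI complex, its signalling and mast cells (16 in the list), 11 were lower in brush than in CD45+ cells and 1 was higher, where 22.4% and 23.4% of all genes tested were. Among the 11, the call on Lyn (adjusted p = 0.0351) was lost in 10 of 26 alternatives and that on Slc18a2 (adjusted p = 0.0148) in 3. The median log2 fold change of the 12 was -7.98, against 0.05 over all genes tested. The mast cell protease genes Tpsb2 and Cma1 and the carboxypeptidase gene Cpa3 had 0 counts in brush cells and 174 ± 173, 164 ± 126 and 88.9 ± 62.4 CPM in CD45+ cells (SD, n = 4). The exception was Kit, the stem cell factor receptor gene, at 150 ± 36.3 CPM in brush, 19.1 ± 6.08 in EpCAM+ and 32.2 ± 15.9 in CD45+ cells, 2.17 ± 0.36 (log2 fold change ± SE, adjusted p = 2.77e-05) above CD45+ cells. Between brush and EpCAM+ cells 2 of the 12 were higher (Kit and the kinase gene Lyn) and 2 lower (Hdc and Lat2), near the 18.3% and 22.0% of all genes. Between EpCAM+ and CD45+ cells 10 were lower and none higher, beside 18.1% and 22.5% of all genes.

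All 14 B cell genes were tested. Of these, 13 were lower and 1 was higher in brush than in CD45+ cells, beside 22.4% and 23.4% of all genes. The median log2 fold change was -9.12, or -8.19 with genes at 0 in a group set to their bound, against 0.05 over all genes. The 13 included Cd79a, Blk and Bank1, of which Cd79a and Blk had 0 counts in brush cells. The exception was Spib, an ETS transcription factor, at 334 ± 41.8 CPM in brush, 0.648 ± 0.894 in EpCAM+ (SD, n = 7 each) and 69.5 ± 37.8 in CD45+ cells (SD, n = 4), 2.26 ± 0.61 above CD45+ cells (log2 fold change ± SE, adjusted p = 0.00397). Against EpCAM+ cells, Spib, Cd37 and Cd79b were higher in brush cells and Cd79a was lower, where 18.3% and 22.0% of all genes were. The call on Cd79a (adjusted p = 0.0499) rested on 8 counts in EpCAM+ cells, and it was lost in most alternatives. Cd79b, a B cell receptor chain gene, was at 31.8 ± 13.2 CPM in brush and 1.01 ± 0.551 in EpCAM+ cells. All 14 were lower in EpCAM+ than in CD45+ cells, where 18.1% of all genes were.

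Of 20 macrophage and monocyte genes, all tested, 19 were lower in brush than in CD45+ cells and Plac8 was higher (2.97 ± 0.58, log2 fold change ± SE, adjusted p = 0.000177). Over all genes tested 22.4% were lower and 23.4% higher. The median log2 fold change of brush over CD45+ for the 20 genes was -8.31. All 20 were lower in EpCAM+ than in CD45+ cells, where 18.1% of all genes were. Against EpCAM+ cells, 9 were higher in brush cells, among them C1qa, C1qb and C1qc, which had 71, 45 and 31 counts in brush and 0 in EpCAM+ cells, and 4 were lower, among them Lyz2, Cd14 and Ccr2, where 18.3% and 22.0% of all genes were. With only these 2 groups in the fit, 3 were called higher, because the other 6, the 3 complement genes among them, did not pass the low count filter and were not tested. The call on Ccr2 (adjusted p = 0.0314) was lost in 6 of 26 alternatives. The 3 complement genes had means of 1.24 to 2.35 CPM in brush and 395 to 1320 CPM in CD45+ cells. The 20 macrophage and monocyte genes summed to 800 to 3531 CPM in brush, 1914 to 4135 in EpCAM+ and 7925 to 29526 in CD45+ cells. In brush cells Plac8 alone made 715 to 3441 CPM of that sum and the other 19 had means of at most 31.6 CPM. In EpCAM+ cells Lyz2 and Cd14 had means of 2671 and 445 CPM and the other 18 of at most 30.8 CPM. Leukocyte markers (Ptprc, Cd52, Coro1a and Laptm5) summed to 13.2 to 36.3 CPM in brush, 0 to 3.21 in EpCAM+ and 4312 to 5643 in CD45+ cells. Their part in the 11 brush counts of leukocyte members was not tested.

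All 15 tested T and NK cell genes were lower in brush than in CD45+ cells (median log2 fold change -9.34, or -8.51 with genes at 0 set to their bound). Of these, 14 were lower in EpCAM+ than in CD45+ cells. Over all genes tested 22.4% and 18.1% were lower in these contrasts, and 22.0% were lower in brush than in EpCAM+ cells. Cd5 and Gzma were lower in brush than in EpCAM+ cells, with 0 counts in brush and 108 and 34 in EpCAM+ cells, and neither was tested with only these 2 groups in the fit, where they did not pass the filter. Among 17 tested genes of other epithelial types all were lower in brush than in EpCAM+ cells, beside 22.0% of all genes. All 17 were higher in EpCAM+ than in CD45+ cells, beside 22.5%. Their median log2 fold change of brush over EpCAM+ was -6.32 (-6.23 at the bound), against -0.06 over all genes. Within this list the largest differences between brush and EpCAM+ cells were those of Sftpc, Gp2, Tff2 and Krt13 (log2 fold changes of -12.62, -9.99, -9.22 and -8.75, SE 1.82, 1.58, 1.23 and 0.93, adjusted p at most 1.84e-05). Between EpCAM+ libraries Sftpc ran from 0 to 1513 CPM and Gp2 from 0 to 277 CPM. The 17 genes of basal, secretory, ciliated and other cells were higher in EpCAM+ cells than in both other groups, some at low levels (Foxj1 at a mean of 5.27 CPM). In these libraries Ms4a15 had the 2 counts given above. Between brush and CD45+ cells Aqp5 was called higher and Sftpc and Tff2 lower, beside 23.4% and 22.4% of all genes. The call on Aqp5 was lost with replicate numbers as a block (adjusted p = 0.0552), that on Sftpc without CD45+ replicate 3 (adjusted p = 0.918), and that on Tff2 (adjusted p = 0.0453) in 12 of 26 alternatives.

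Relatives and partners of MS4A proteins were called in both directions. Tmem176a and Tmem176b, tetraspan genes related to the family, were called lower in brush than in EpCAM+ cells (-1.66 ± 0.40 and -1.48 ± 0.38, log2 fold change ± SE, adjusted p = 0.00191 and 0.00297). Their brush means were 455 ± 242 and 782 ± 355 CPM and their EpCAM+ means 1433 ± 1172 and 2174 ± 1414 CPM (SD, n = 7), the latter raised by EpCAM+ replicate 5 at 4063 and 5362 CPM. The tetraspanin genes Cd81 and Cd63 were lower in brush cells as well, at -1.63 ± 0.31 and -3.72 ± 0.53 (adjusted p = 0.000195 and 4.52e-06). The tetraspanin gene Cd53 went the other way, at 4.52 ± 1.08 (adjusted p = 0.00281), with 18 counts in brush and 0 in EpCAM+ cells. So did Cd37 of the B cell list, also a tetraspanin gene.

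Of the 4 genes that accompany MS4A proteins in necklace olfactory neurons (Gucy2d, Cnga3, Pde2a and Car2), Pde2a was a brush cell gene. This cyclic nucleotide phosphodiesterase gene was at 485 ± 205 CPM in brush, 0.856 ± 0.981 in EpCAM+ (SD, n = 7 each) and 29.3 ± 13.2 in CD45+ cells (SD, n = 4). Its log2 fold changes were 9.09 ± 0.64 over EpCAM+ and 4.00 ± 0.63 over CD45+ cells (SE, adjusted p = 1.72e-10 and 1.18e-05), and both calls held in the 25 alternatives that tested it, while its symbol was not matched in the RSEM tables. Gucy2d had 0 counts in brush cells and Cnga3 had 3, neither passing the filter, and Car2 stood at 3.13 ± 2.77, 2.17 ± 0.713 and 5.63 ± 5.75 CPM in the 3 groups, with adjusted p of 0.528 for brush against EpCAM+ and 0.288 against CD45+ cells. In all, 3 of 12 tested partners and relatives were higher and 4 lower in brush than in EpCAM+ cells, beside 18.3% and 22.0% of all genes. With only these 2 groups in the fit 1 was higher, the other two (Cd40 and Cd53) not passing the filter, and the call on Cd40 was also lost in 7 of the alternatives that tested it. Against CD45+ cells 1 was higher (Pde2a) and 4 lower in brush cells, beside 23.4% and 22.4% of all genes. In EpCAM+ against CD45+ cells 2 were higher and 6 lower, beside 22.5% and 18.1%. The list's medians in these 3 contrasts were 0.19, -0.64 and -1.28 on the log2 scale.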

How the data were processed

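RNA was sequenced from 18 libraries of sorted tracheal cells. The authors deposited a table of whole-number read counts per gene symbol, used here as deposited, and per library, per the file headers, RSEM expected counts and TPM. A rescaled count table was not used. The submitters' processing notes name mm10 as the build and, without roles, featureCounts, DESeq2, Picard, STAR 2.4.2a and RSEM 1.2.21. Which annotation was counted, and whether by strand, is not stated in the sources used here.

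The members and all gene lists were chosen with earlier results of these data known. Named were all members, other Ms4a genes, up to 4 genes with the largest called log2 fold change per list, direction and contrast, both other FceRI subunits, called neighbours, and the 3 genes most like each member. Genes named otherwise were chosen after their values were seen. Some genes that this rule selects are not reported here.

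Counts were tested with edgeR 4.0.16 in R 4.3.3 (quasi-likelihood F test, TMM, filterByExpr, group as the only term, 18 libraries), tested first on simulated data. The filter left 13418 genes and removed 12909. Calls had a Benjamini-Hochberg adjusted p below 0.05. Standard errors were |log2 fold change| divided by the root of F. A group with 0 counts was set to 3 counts for a lower bound, which was set against the mean CPM of the high group. Ratios with a counting interval are over summed counts, and the intervals are exact at 95%. Coordinates are from GENCODE vM21 on GRCm38, promoters from RefSeq. Alternatives covered scaling, filter, tool (DESeq2 1.42.0), count source, libraries and a replicate block. Libraries of a group differed by at least 6.11 in chi-square per degree of freedom (48 pairs), so none was taken for a copy of another.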

Additional observations from a re-analysis of the deposited data

Results flagged for a closer look

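In 30 groups of 7 or 4 libraries with values above 0, 9 held a library whose gap to the nearest other exceeded Dixon's 95% limit, where chance alone gives about 1 in 20. In 3 of the 9 a single library held all counts, which passes the limit whatever the count, so that rate does not apply to them. Ms4a15 was low in brush replicate 4, at 123 CPM (65 counts) against 185 to 225 CPM in the other 6. It was counted in EpCAM+ replicate 7 alone, at 0.539 CPM (2 counts). Ms4a6d was counted among brush libraries in replicate 7 alone, at 0.238 CPM (2 counts), and Ms4a14 in replicate 6 alone, at 0.853 CPM (4 counts). Ms4a8a was high in brush replicate 4, at 22.6 CPM (12 counts) against 4.90 to 11.6 CPM.

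Fcer1g was high in brush replicate 5, at 2.18 CPM (4 counts) against 0 to 0.813, and in EpCAM+ replicate 5, at 3.09 CPM (10 counts) against 0 to 0.288. The same EpCAM+ replicate 5 was high for Tmem176a, at 4063 CPM against 857 to 1331, and for Tmem176b, at 5362 CPM against 1440 to 1831.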

How the results depend on the processing

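All 9 members kept every library of their highest group above every other library in each of the 25 alternatives that fit all 3 groups together. The members were chosen for this pattern. Alternatives that only leave out libraries or add the replicate block could hardly change it, so nothing is read from this. Of 702 member levels and folds under alternatives 33 moved by more than the spread between libraries, and of 1273 counts of genes 56 moved by over 1.5 times, all in counts of lists and neighbours. The B cell gene lower in brush than in EpCAM+ cells (1) was 0 with the DESeq2 Wald test, DESeq2 size factors, RSEM counts, only the 2 groups compared, and without the 3 libraries that stood apart, and 0 to 1 with 1 library left out. With only the 2 groups compared, the brush against EpCAM+ counts became 1 for FceRI genes lower (from 2), 1 for partners higher (from 3), 0 for T and NK genes lower (from 2) and 3 for macrophage genes higher (from 9). The genes that left these counts no longer passed the filter and were not tested. T and NK genes higher in brush than EpCAM+ cells (0) gave 0 to 1 with 1 library left out. Partners higher in EpCAM+ than CD45+ cells (2) were 1 with only those groups, with the replicate block and without the 3 libraries, and 0 to 2 with 1 library left out. Partners higher in brush than CD45+ cells (1) were 0 with RSEM counts, where Pde2a was not matched. Epithelial genes higher in brush than CD45+ cells (1) were 3 with DESeq2, 2 with its size factors and 0 with the replicate block. Epithelial genes lower in brush than CD45+ cells (2) were 1 with size factors, RSEM counts or without the 3 libraries. They were 0 with only those groups, where the 2 genes did not pass the filter and were not tested. With 1 library left out epithelial genes ranged from 1 to 3 higher and 1 to 2 lower. Without the filter, 7 neighbours were lower in EpCAM+ and 8 in brush than in CD45+ cells, and with RSEM counts 1 was higher in brush than in CD45+ cells.

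Replicate numbers are not said to pair libraries, and same-numbered libraries of brush and EpCAM+ cells correlated between -0.10 and 0.27 in their deviations, 4 of 7 pairs above 0.1 and 2 libraries best with their own number. With the replicate block 2374 genes were higher and 2661 lower in brush than EpCAM+ cells, against 2459 and 2952 without it. Depth limits the lowest members most: Ms4a2 had 42 counts in all, and CD45+ replicate 1 carried 405 counts of the leukocyte members.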
